A study of Cavia porcellus with 14 samples.

Results

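One dense block of scaffold 111 of the guinea pig genome held 1272 of the 6017 cytosine positions in the authors' deposited table, 21.1% of that list. The block was defined by coordinates, from 3734774 to 3941117, a span of 206344 bp. All of its positions had been listed by the authors for a false discovery rate under 0.05 between betamethasone and saline, so every difference between those treatments given here is a description and carries no test. Whole blood of newborn female guinea pigs, dried as spots, was the source of the DNA. One group of 7 animals was born to mothers given betamethasone, a synthetic glucocorticoid, on gestational day 50/51, and the other group of 7 to mothers given saline on the same days. Methylation was read by reduced representation bisulfite sequencing, a method that enriches CpG-rich fragments and uses bisulfite to convert cytosines that carry no methyl group. The table holds 1 read total per treatment and no value per animal, so no spread between animals could be computed. Whole blood is a mixture of leukocyte types, so a change in the proportion of cell types and a change of methylation within a cell type cannot be told apart.

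Cytosines followed by guanine (CpG) carry most of the methylation of mammalian DNA, and most of the genome's CpGs are methylated in most cells. The exceptions are short stretches rich in CpG, known as CpG islands, which often cover promoters and stay unmethylated. At the edge of such a stretch the level usually climbs over a short distance, a part often called the shore. DNA methyltransferases write the mark, TET enzymes oxidise it, and the glucocorticoid receptor that betamethasone activates is a transcription factor that binds DNA directly. The build of the coordinates was not given in the sources used here, while the only gene table at hand came from another assembly, so no gene, promoter, island or sequence was assigned to any position.

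The first listed position of the block, 3734774, had 175 methylated of 183 betamethasone reads and 135 of 150 in the saline pool. The last, 3941117, had 4 of 84 and 1 of 70. The nearest listed position outside, 2486257, lay 1248517 bp before the block, with 15 of 16 reads methylated after betamethasone and 23 of 24 after saline. Scaffold 111 held 7 listed positions before the block and 0 after it. The block had 6.16 listed positions per kb. The densest window of the same length elsewhere, on scaffold 62 from 7332285, held 116 positions, or 0.562 per kb. Coverage in the block ran from 10 to 449 reads per position in the betamethasone pool (median 135.5) and from 10 to 385 in the saline pool (median 122). Neighbouring positions often shared reads: of 1006 neighbours at most 50 bp apart, 160 had the same coverage in both pools and 477 differed by 5 reads or fewer in both.

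Along the block, unmethylated and methylated sequence alternated. A tract was defined as 5 or more neighbouring positions, each less than 1000 bp from the next, on the same side of 50% by a running median over 5 positions of the combined level of both pools. A tract was low if the mean combined level of its positions was under 20%, high if it was over 80% and intermediate otherwise. The block held 56 tracts, of which 10 were low with 357 positions, 15 intermediate with 181 and 31 high with 699. The remaining 35 positions lay in 15 shorter runs. Of the 181 positions in intermediate tracts, 81 had a combined level from 20% to 80%, 76 were over 80% and 24 under 20%. An intermediate tract can therefore be a mixture of low and high positions. From a tract to the next, the class changed at 30 of 55 places and the side of 50% at 26. The first tract on the unmethylated side began 10.6 kb into the block and the last ended at 173 kb. At most 6 methylated tracts stood between unmethylated ones. The tracts covered 27.6% of the span, and the rest held no listed position or a shorter run. The widest gap was 15593 bp, from 3770564 to 3786157.

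**Figure D1:**
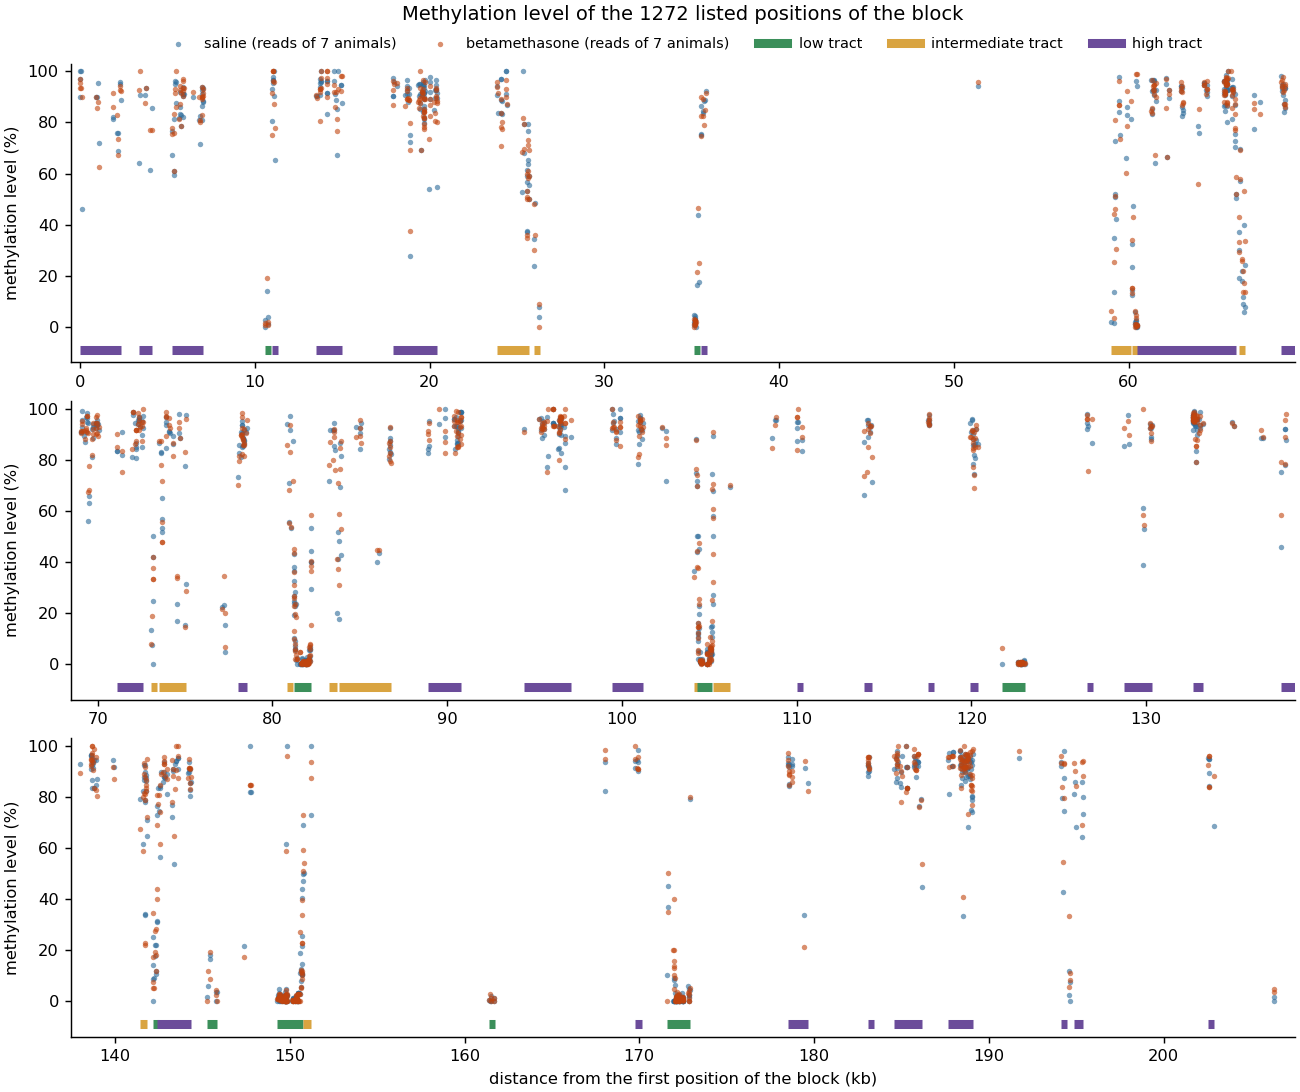
Methylation level (%) of each of the 1272 positions in the saline pool (blue) and betamethasone pool (red) against distance from the first position of the block (kb), in 3 consecutive panels. Coloured bars mark the 10 low, 15 intermediate and 31 high tracts (short ones are widened to stay visible), and the pools lie almost on top of each other, at opposite sides of 50% at only 17 positions.

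The levels were nearly bimodal in both pools. Of the 1272 positions, 349 (27.4%) had a combined level under 20%, 720 (56.6%) over 80% and 203 (16.0%) between. Outside the block the shares were 28.3%, 53.9% and 17.8% of 4745 listed positions. The bin under 10% held 310 positions of the block and the bin from 90% held 482, while the bin from 40% to 50% held 25. No position, in the block or elsewhere in the list, was without a methylated read in both pools, and none was fully methylated in both, so the list leaves out positions at either extreme. Across the 1272 positions the levels of the 2 pools correlated with r = 0.99, the same as across the positions outside (r = 0.99). This is a correlation over positions of 1 pool per treatment. Neighbouring positions of a pool often share fragments, so positions are not independent replicates.

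The low tract with the most positions ran from 3884046 to 3885519, with 100 positions. Its mean level was 5.29% ± 14.4 (SD over positions) after betamethasone and 5.70% ± 14.8 after saline, and 87 of its positions were under 10%. The left edge was flat: the first 10 positions had a mean of 1.25% ± 0.837 after betamethasone and 1.44% ± 1.51 after saline. The right edge climbed, and the last 10 positions, from 3885419, had means of 24.4% ± 20.1 and 25.8% ± 19.5. The last of them, 3885519, stood at 72.7% in 227 reads after betamethasone and at 68.8% in 176 after saline. Of its 100 positions, 41 were higher after betamethasone and 59 lower.

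In the low tract from 3815998 to 3817001, with 68 positions, both edges were raised and the inside was nearly free of methylation. The inner 48 positions had a mean level of 2.59% ± 5.02 (SD over positions) after betamethasone and 2.74% ± 6.07 after saline. The first 10 positions had means of 25.4% ± 14.3 and 26.0% ± 12.0, and the last 10 means of 21.4% ± 20.1 and 22.9% ± 20.4. The tract from 3839103 to 3839956, with 54 positions, had a raised left edge and a less evenly raised right edge. Its inner 34 positions had means of 5.36% ± 9.63 after betamethasone and 4.97% ± 8.78 after saline, against 19.6% ± 14.6 and 21.1% ± 19.1 in its first 10. The last 10 had means of 14.6% ± 20.3 and 14.5% ± 21.5. Their median combined level was 7.93%, and the highest, at 3839945, was 71.2%. Over the whole of that tract the mean difference was -0.01 ± 3.91 points, where points are percentage points of methylation and the sign is betamethasone minus saline.

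The low tract from 3906377 to 3907653, with 73 positions, differed between the pools at its left edge. Its inner 53 positions had means of 1.33% ± 2.11 (SD over positions) after betamethasone and 1.10% ± 1.52 after saline. The first 10 positions had means of 20.9% ± 16.0 and 10.1% ± 16.8, with 8 of the 10 higher after betamethasone. These edge positions rested on few reads. At 3906740, for example, methylated reads were 8 of 20 after betamethasone and 1 of 11 after saline. At the neighbouring 3906736 they were 4 of 20 and 0 of 11. From 3906716 to 3906765 each of the 7 positions had 11 saline reads, so the same saline fragments may be counted at all of them.

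**Figure D2:**
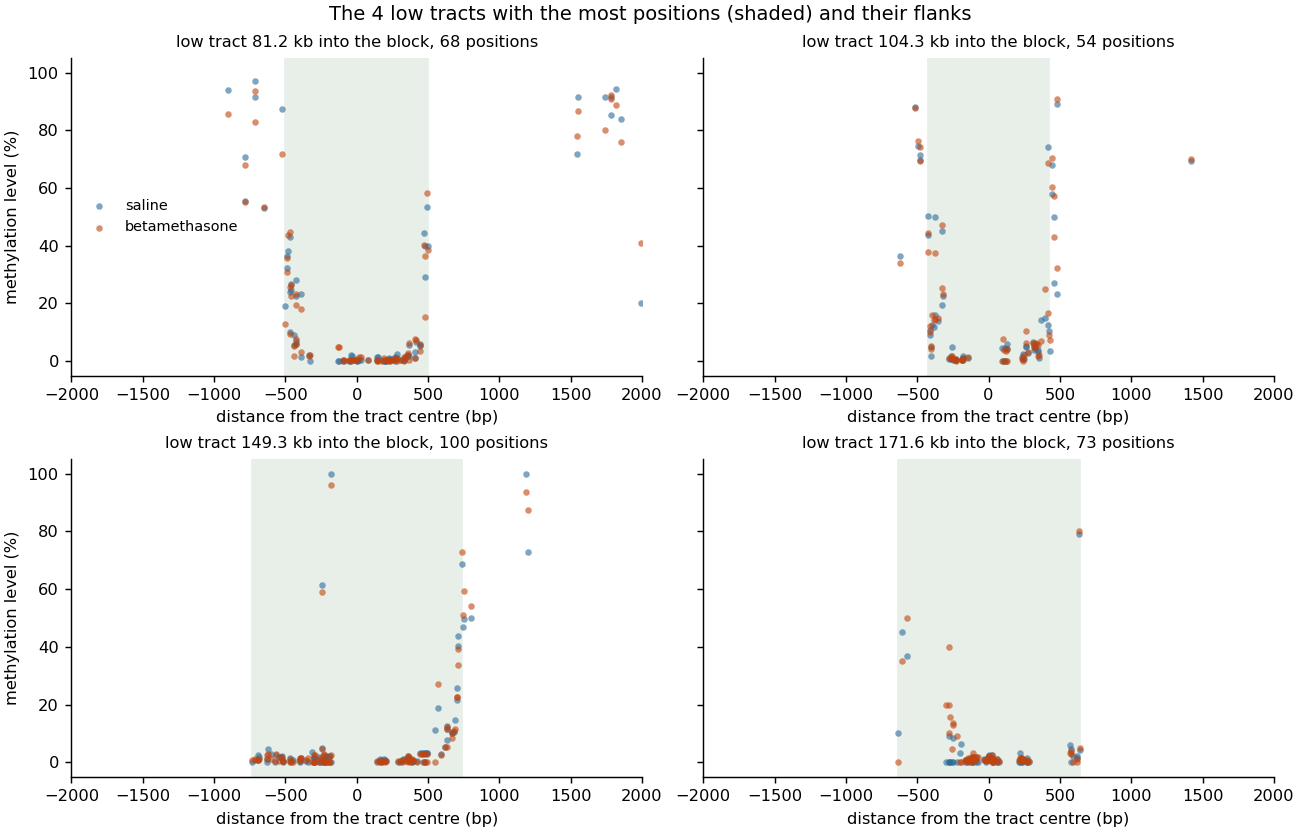
Methylation level (%) in the saline pool (blue) and betamethasone pool (red) against distance from the tract centre (bp) for the 4 low tracts with the most positions (68, 54, 100 and 73), shaded. Most levels inside are close to 0 in both pools. Levels climb at both edges of the tract of 68 positions, at the left edge of the tract of 54 and at the right edge of the tract of 100. The right edge of the tract of 54 is less evenly raised, and the left edge of the tract of 100 stays flat (first 10 positions at 1.25% and 1.44%).

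The remaining low tracts had fewer positions. The tract from 3856516 to 3857828 held 18 positions, all under 10%, with means of 0.698% ± 1.41 (SD over positions) after betamethasone and 0.380% ± 0.480 after saline. Its best covered position, 3857511, had 1 methylated read of 392 in the betamethasone pool and 1 of 341 in the saline pool. A tract of 6 positions from 3896177 to 3896460, singled out after its values were seen, was similar at 0.892% ± 0.986 and 0.605% ± 0.801. The low tract with the highest level ran from 3876946 to 3877164, with 12 positions at 21.5% ± 13.4 after betamethasone and 16.9% ± 9.62 after saline. It was also the low tract with the largest difference, 4.53 ± 4.89 points, and 9 of its 12 positions were higher after betamethasone. At its right end, 3877163 was methylated in 43.9% of 187 reads after betamethasone against 31.4% of 175 after saline, and 3877164 in 40.1% against 30.8%.

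A step in level between a low and a high tract follows from the tract rule. No listed position lay between the ends of a border, so the course of the level within it was not seen. Among 15 places where tracts of opposite sides followed each other directly in a stretch, 4 joined a low and a high tract. At the narrowest of these, only 29 bp separated the last low position, 3877164, from the first high one, 3877193. The 3 positions before it averaged 34.0% after betamethasone and 24.3% after saline, and the 3 after it 75.6% and 77.6%. Over the 99 bp from 3770181 to 3770280 the averages of 3 positions went from 30.9% to 82.4% after betamethasone and from 25.8% to 78.9% after saline. Over the 219 bp from 3745544 to 3745763 they went from 7.22% to 88.9% and from 6.25% to 90.1%. Over the 915 bp from 3879113 to 3880028 they fell from 85.4% to 6.84% and from 82.9% to 8.51%. The low tracts at these borders had 5, 14, 12 and 7 positions, and the high tracts 9, 8 and 36.

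High tracts held 55.0% of the positions of the block. Their mean combined levels ranged from 82.3% to 95.2% with a median of 89.3%, and 624 of their 699 positions were over 80%. The high tract with the most positions, 74 from 3795265 to 3800932, had means of 88.5% ± 13.9 (SD over positions) after betamethasone and 87.8% ± 14.1 after saline, with 42 positions higher, 31 lower and a difference of 0.72 ± 5.16 points. The tract from 3752656 to 3755186 leaned the other way. Over its 59 positions the means were 86.6% ± 9.13 and 88.1% ± 11.9, a difference of -1.45 ± 6.55 points, with 17 higher and 42 lower. The tract of 55 positions from 3922433 to 3923850 differed by 1.44 ± 4.49 points (91.1% against 89.6%), with 32 higher and 21 lower. The tract of 42 positions from 3803521 to 3804848 differed by 0.44 ± 4.21 points, with 27 higher and 15 lower. The tract of 41 positions from 3829173 to 3831878 differed by 3.05 ± 6.72 points, at 93.9% ± 4.75 against 90.8% ± 6.28. In all 5, the SD over positions exceeded the size of the mean difference. That SD is the scatter of single positions, and gives neither the error of a tract mean nor the spread between animals.

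Averaged over the positions of each class, the 2 treatments were close. Low tracts had a mean level of 6.94% in the betamethasone pool and 6.61% in the saline pool, differing by 0.33 ± 4.13 points (SD over 357 positions). Intermediate tracts had 61.9% and 61.1%, a difference of 0.84 ± 8.09 points (181 positions). High tracts had 89.7% and 88.8%, a difference of 0.88 ± 6.03 points (699 positions). Over the alternative settings these means ranged from 0.06 to 0.55 points in the low, 0.45 to 3.32 in the intermediate and 0.22 to 1.00 in the high class. The 3.32 and 0.22 came from classing each position by its own level, not by tract. With classes by tract, the intermediate mean was at most 1.57 points and the high mean at least 0.38. Over the whole block 675 positions were higher after betamethasone, 589 lower and 8 equal. That is 53.1% higher and 46.3% lower, against 52.1% and 47.3% of the whole list. The share of positions that were higher was 48.7% in low, 55.8% in intermediate and 53.6% in high tracts. The share in low tracts was thus below that of the whole list, although their mean difference was above 0. Their median difference was -0.04 points.

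By tract, the mean difference was above 0 in 38 of 56 (67.9%), against 58.4% of the 399 tracts that the same rule made from the whole list. It was above 0 in 6 of 10 low, 11 of 15 intermediate and 21 of 31 high tracts. Outside the block the counts were 60 of 99, 37 of 58 and 98 of 186. The tract means averaged 0.67 ± 1.48 points (SD over tracts) in low, 1.59 ± 3.60 in intermediate and 1.38 ± 2.64 in high tracts of the block. In each class the SD over tracts was larger than the mean, which describes the scatter of tracts and is no test. A mean difference of 5 points or more in size was present in 9 tracts of the block (16.1%), 6 intermediate, 3 high and 0 low, against 10.3% of the tracts of the whole list. All tracts were read in the same 2 pools of animals.

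**Figure D3:**
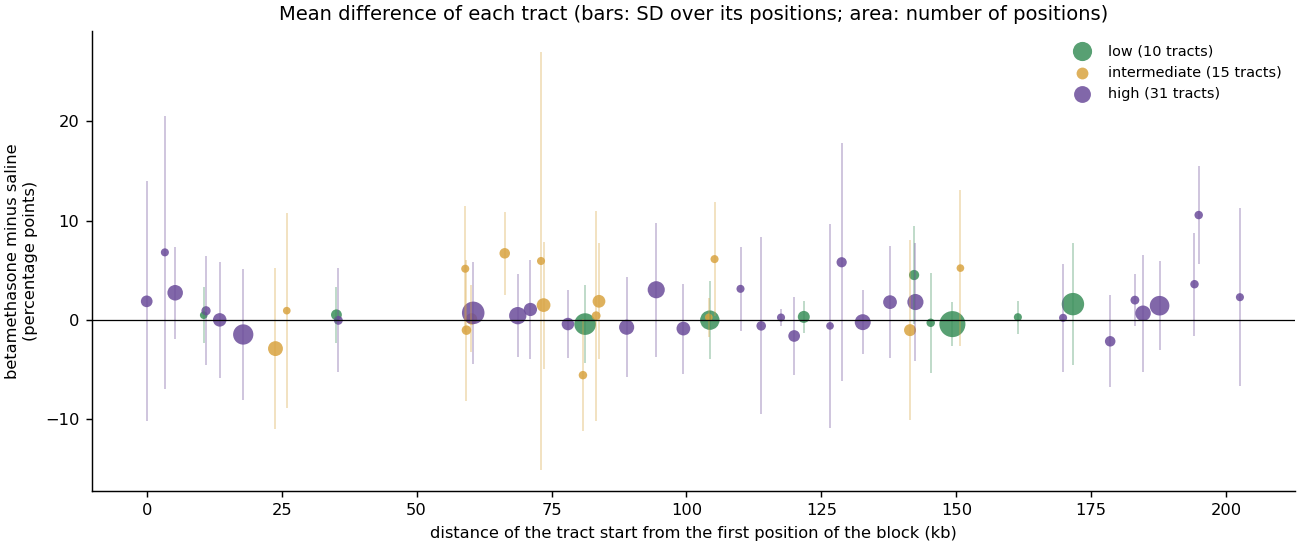
Mean difference of each of the 56 tracts, betamethasone minus saline in percentage points, against the distance of its start from the first position of the block (kb), coloured by class, with bars for the SD over its positions and marker area growing with the number of positions. Low tracts lie within 4.53 points of 0, while intermediate tracts spread from -5.54 to 6.71 points.

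The intermediate tract with the largest mean difference lay between high tracts, from 3801106 to 3801414. Methylation was higher after betamethasone at 12 of its 13 positions, with a mean level of 33.7% ± 17.5 (SD over positions) against 27.0% ± 19.5 and a difference of 6.71 ± 4.15 points. At 3801144 the levels were 69.2% in 26 reads after betamethasone and 69.8% in 43 after saline, and at 3801154 they were 57.9% of 247 and 57.0% of 258. From 3801275 on, all 8 positions were higher after betamethasone with 186 or more reads in each pool. At 3801338 the level was 21.9% of 306 reads after betamethasone (exact 95% interval 17.4 to 27.0) against 11.5% of 279 after saline (7.98 to 15.8). At 3801396 it was 17.2% of 203 reads (12.3 to 23.2) against 5.88% of 187 (2.97 to 10.3). At 3801389 it was 53.2% of 203 reads (46.1 to 60.2) against 39.8% of 186 (32.7 to 47.2). These were the largest differences of the tract. The smallest among those 8 positions was at 3801276, with 26.5% of 302 reads (21.6 to 31.8) against 21.8% of 271 (17.0 to 27.2). These intervals cover counting error of reads only, not the spread between animals. The last 4 positions had 203 or 204 betamethasone reads and 186 or 187 saline reads, so they largely share fragments.

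**Figure D4:**
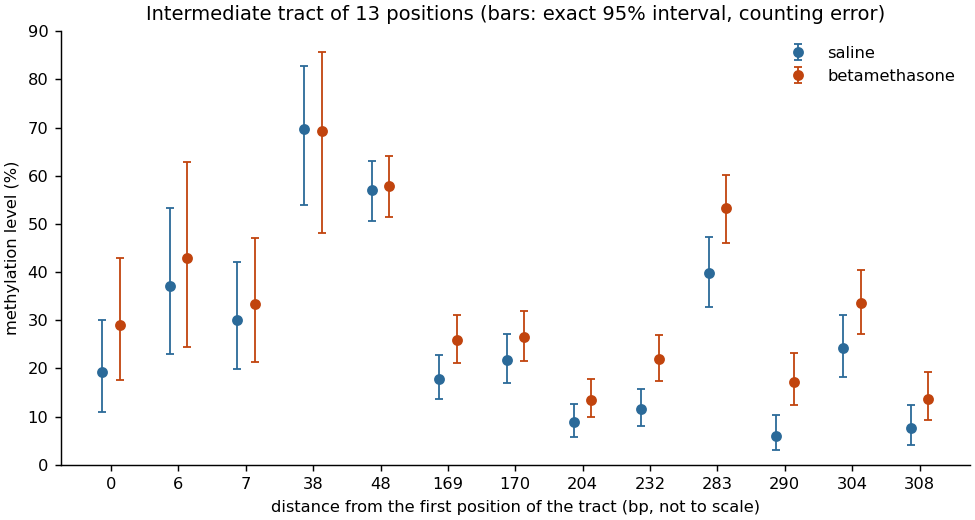
Methylation level (%) at the 13 positions of the intermediate tract from 3801106 to 3801414 in the saline pool (blue) and betamethasone pool (red), with exact 95% intervals for counting error, labelled by distance from the first position (bp, evenly spaced). The betamethasone point is above the saline point at 12 positions, and the 4th position is the exception.

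The other intermediate tracts fell into those on the unmethylated and those on the methylated side of 50%. On the unmethylated side, the tract from 3793789 to 3793987 was at 34.5% ± 29.1 (SD over positions) after betamethasone and 29.3% ± 29.0 after saline, with 5 of 6 positions higher. The tract from 3807829 to 3807969 differed by 5.94 ± 21.0 points with 3 positions higher and 3 lower, and 3 of its positions had 12 reads in each pool. Within it, 3807909 was methylated in 18.8% of 138 reads after betamethasone and 7.30% of 137 after saline, and 3807916 in 37.7% and 24.6% of 138 reads each. The tract from 3760724 to 3761052 (5 positions) differed by 0.94 ± 9.81 points. The tract from 3794945 to 3795264 (16 positions) differed by 0.11 ± 3.37 points around a mean of 21.0% and 20.9%. Its median combined level was only 4.72%, while 3795194 and 3795264 stood at 97.6% and 96.6%, so its mean does not describe its typical position.

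On the methylated side, the tract from 3839977 to 3840946 was higher after betamethasone at 6 of 6 positions, at 60.6% ± 21.2 (SD over positions) against 54.4% ± 25.9, with 10 to 42 reads per position. The tract from 3885529 to 3885983, which borders the low tract of 100 positions, was at 69.1% against 63.9%, a difference of 5.22 ± 7.81 points with 4 of 5 higher. The tract from 3815594 to 3815973 went the other way, at 72.9% ± 15.3 against 78.5% ± 18.5, a difference of -5.54 ± 5.62 points with 6 of 7 positions lower. It directly borders the low tract of 68 positions. The tract of 30 positions from 3758629 to 3760480 differed by -2.87 ± 8.10 points, with 11 higher and 18 lower. The 6 others on this side had 5 to 25 positions and mean differences from -1.02 to 1.89 points, each smaller than its SD over positions. They started at 3794012, 3808302, 3818044, 3818566, 3838911 and 3876195.

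The 3 high tracts that differed by 5 points or more were singled out after their values were seen. The tract from 3929679 to 3930181 was higher after betamethasone at 7 of 7 positions, at 87.5% against 76.9%, a difference of 10.6 ± 4.94 points (SD over positions). Its coverage was 15 to 20 betamethasone reads and 14 to 22 saline reads. A run of 4 positions just before it, from 3929373 to 3929396, was also higher at every position. In that run 3929385 had 12 of 36 reads methylated after betamethasone and 5 of 42 after saline. The tract from 3738139 to 3738864 differed by 6.81 ± 13.8 points over 6 positions with 11 to 16 reads. The tract from 3863527 to 3865122 differed by 5.81 ± 11.9 points over 12 positions, and the difference was carried by positions with few reads. At 3864605 12 of 12 reads were methylated after betamethasone and 11 of 18 after saline, a difference of 38.9 points, and at 3864624 it was 7 of 12 and 7 of 18. The 6 positions from 3865008 on, with 116 to 146 reads, differed by -1.56 to 2.44 points.

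Single positions with at least 50 reads in both pools gave smaller extremes than the whole block. The 3 largest differences in each direction are given. They were picked as extremes from the contrast that made the list, and their intervals cover counting error only. Such an interval is no evidence that the treatments differ. The largest positive difference was at 3818495, with 25 of 61 reads methylated after betamethasone (41.0%, exact 95% interval 28.6 to 54.3) and 13 of 65 after saline (interval 11.1 to 31.8), a difference of 21.0 points (Newcombe interval 4.92 to 35.8). The next position, 3818521, was at 71.0% of 62 reads and 51.5% of 68, a difference of 19.5 points (2.71 to 34.7). These 2 neighbours had nearly the same coverage. At 3809304 it was 34.6% of 191 reads and 16.7% of 174, a difference of 17.9 points (8.96 to 26.4). The largest negative differences were in high tracts. At 3834686 all 54 saline reads were methylated against 85.5% of 55 betamethasone reads, a difference of -14.5 points (-26.2 to -4.91). At 3748478 the levels were 80.6% of 72 reads after betamethasone and 93.8% of 65 after saline, a difference of -13.3 points (-24.5 to -1.86). At 3914203 they were 21.2% of 104 reads and 33.7% of 98, a difference of -12.5 points (-24.4 to -0.22), and this was the only position of its tract under 50%. Differences of 10 points or more in size were present at 108 positions of the block (8.49%), against 10.3% of the whole list. Of these, 71 were higher and 37 lower after betamethasone, and 54 of the 108 were at positions with a combined level between 20% and 80%. Outside the block 289 were higher and 225 lower, and 261 of those 514 were at such positions, a similar share.

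Some neighbouring positions had opposite levels in both pools. Positions 1 bp apart may represent both strands of a CpG; no sequence was used to check this. The block held 217 such pairs, and their combined levels differed by a median of 1.71 points, with 175 pairs within 5 points. In 9 pairs (4.15%) the partners lay on opposite sides of 50%, and in 8 of these the gap was 50 points or more in both pools. Outside the block 35 of 777 pairs (4.50%) lay on opposite sides, a similar share. At 3795193, methylated reads were 1 of 324 after betamethasone and 1 of 292 after saline, while at 3795194 they were 121 of 122 and 128 of 133. At 3795264 the level was 98.8% of 168 reads after betamethasone and 94.2% of 154 after saline, while at 3795265 it was 0.803% of 249 and 0.813% of 246. Within the low tract of 100 positions, 3884604 was methylated in 100 of 104 reads after betamethasone and 74 of 74 after saline, and 3884605 in 1 of 39 and 0 of 44. The other pairs of opposite sides began at 3809774, 3809840, 3839944, 3839987, 3840006 and 3907652. The border between the tracts that end at 3795264 and start at 3795265 runs through such a pair and is set by it.

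The level of a position was shared with its neighbours over short distances, and the direction of its difference hardly so. Neighbours 2 to 10 bp apart lay on the same side of 50% in 95.8% of 309 pairs, and those 201 to 999 bp apart in 74.7% of 75 pairs. Outside the block these shares were 95.6% and 89.1%. The direction of the difference was the same in 48.4% of 217 pairs 1 bp apart, in 60.2% of 304 pairs 2 to 10 bp apart and in 56.2% of 475 pairs 11 to 50 bp apart. Beyond that it was the same in 50.0% of 140 pairs 51 to 200 bp apart and 42.5% of 73 pairs farther apart. Outside the block the corresponding shares were 52.2%, 56.1%, 54.3%, 50.1% and 51.6%. None of these was tested, because the directions come from the contrast that chose the positions.

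The 2 kinds of p-value in the authors' deposited table ran differently along the block. The first p-value was under 0.05 at 68 of the 1272 positions (5.35%), against 6.2% of the whole list. It was under 0.05 at 14 positions of low tracts (3.92%), 21 of intermediate (11.6%) and 30 of high tracts (4.29%). The lowest first p-value of the block in the authors' deposited table was 0.000441, at 3740645. The false discovery rate of the authors' deposited table was exactly 0 at 232 of the 1272 positions, between 3740468 and 3926509. Outside the block it was exactly 0 at 38 of 4745 listed positions, and in the whole list at 270 of 6017. Among those 232, the authors' deposited table gave a first p-value under 0.05 at 17, and the median first p-value was 0.44, against 0.43 over the block. Of the 1271 neighbouring pairs in the block, 598 had the same second p-value in the authors' deposited table and 5 the same first p-value. The median absolute difference was 2.63 points where the rate was 0 and 2.27 points in the rest of the block.

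Rates of exactly 0 were unevenly placed. From 50 to 75 kb and from 75 to 100 kb into it, 79 and 84 positions had a rate of 0 in the authors' deposited table. In the first of these, 62.0% of 216 positions were higher after betamethasone, and in the second 46.1% of 217. From 175 kb to the end, 49 positions had a rate of 0, and 60.3% of 136 were higher. The first 25 kb held 20 positions with a rate of 0. From 25 to 50 kb, 0 of 44 positions had a rate of 0, and the median rate in the authors' deposited table was 0.00478. From 100 to 125, 125 to 150 and 150 to 175 kb it was also 0 at 0 of 143, 207 and 143 positions. In these 53.8%, 57.5% and 50.3% of positions were higher after betamethasone. The share was 44.6% in the first 25 kb and 38.6% from 25 to 50 kb.

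**Figure D5:**
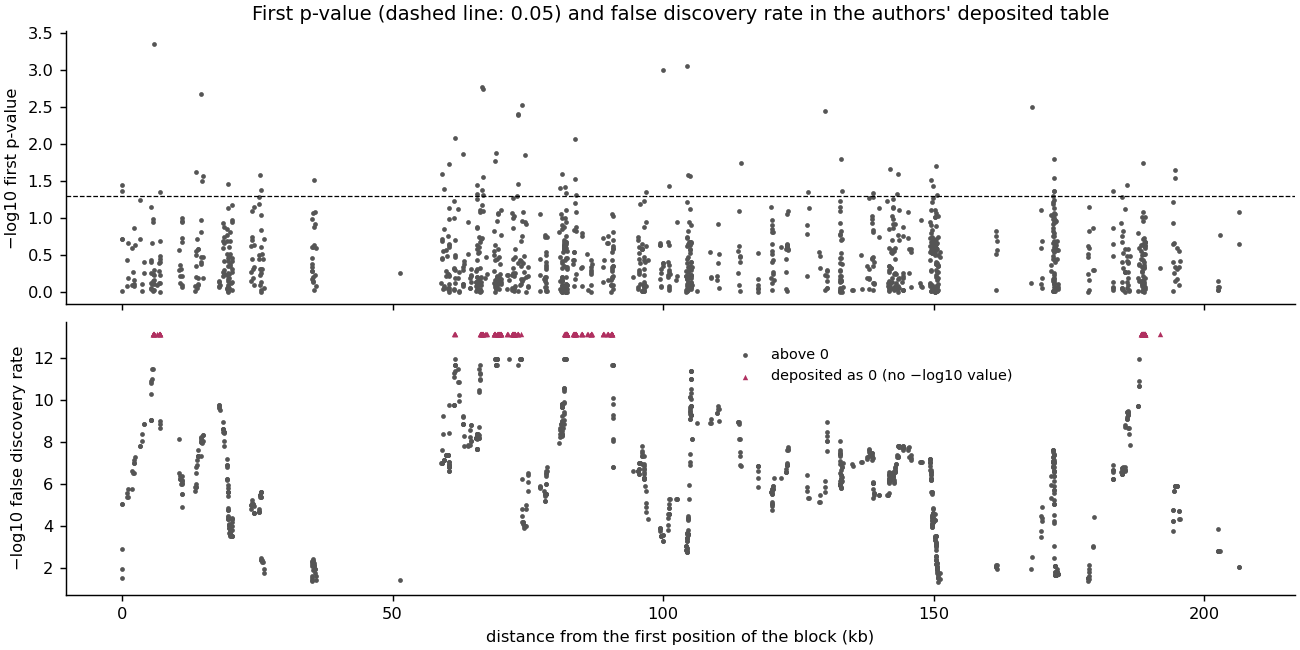
The first p-value (top, −log10, dashed line at 0.05) and the false discovery rate (bottom, −log10) of the authors' deposited table at each position, against distance from the first position of the block (kb). First p-values scatter at every place, while the rate moves in waves over neighbouring positions, with the 232 positions deposited as exactly 0 drawn as triangles at the top.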

How the data were processed

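Bismark 0.16.0, Trim Galore, SAMtools 1.9 and Bowtie2 2.3.4.3 are named in the submitters' processing notes, with neither order nor settings. Genome build and differential test were both not given in the sources used here. For each position and treatment the authors deposited a coverage (signal: reads summed over 7 animals) and a methylated read count. The authors' fraction (beta value) is their quotient, and the authors' difference (deposited as a score) is in percentage points. Each deposited row also has 2 p-values with a false discovery rate. Case was taken to mean betamethasone, as the design text calls saline the control. Levels were recomputed from the counts and matched the deposited differences within 1e-05 points. The lowest coverage was 10 reads in each pool.

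Tracts, their classes (under 20%, over 80%) and most named items followed rules: the 5 low and 5 high tracts with the most positions, all intermediate tracts, low-high neighbours under 1000 bp apart, and the 3 largest differences in each direction at 50 or more reads. Low tract 3896177 to 3896460, the 3 high tracts of 5 points or more, short runs and positions shown as examples inside tracts were chosen after their values were seen. The members and rules were chosen with earlier results of these data known. Intervals of levels and differences are 95%, Clopper-Pearson for a level and Newcombe's for a difference, and cover counting error only. No test between treatments was made. Python 3.11.15, numpy 2.4.6, pandas 2.3.3, scipy 1.17.1, statsmodels 0.14.6 and matplotlib 3.10.9 were used.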

Additional observations from a re-analysis of the deposited data

How the results depend on the processing

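The number of tracts stayed within 1.5 times its value, in total and in each class, under 8 of 9 alternatives. With stretches ended only by gaps of 5000 bp there were 34 tracts in place of 56 and 14 high tracts in place of 31, since fewer gaps then part neighbours. The mean difference kept its sign in every class under all 7 alternatives. With each position classed by its own level, it was 3.32 points in the intermediate class (0.84 by tract) and 0.22 in the high class (0.88 by tract); the cause was not tested. In high tracts it was 0.45 points from summed reads and 0.38 at 50 or more reads in both pools, so it was smaller at well-covered positions. By the same settings it was 0.06 and 0.14 points in low tracts (0.33) and 1.57 and 1.14 in intermediate tracts (0.84). With positions 1 bp apart merged it was 0.55, 0.45 and 1.00 points in low, intermediate and high tracts. The false discovery rate of 0.001 gave 0.51 points in low tracts, and class limits of 10% and 90% gave 0.18. Over the block it was 0.46 points at that coverage (0.78 over all its positions), and the median absolute difference 1.81 points in the block (2.36) and 1.85 elsewhere (2.48). The share of higher positions stayed, in 9 of 9 comparisons, within an interval that took positions as independent, which they are not. The compared sets also overlap, so no conclusion on stability is drawn from this. At 50 or more reads in both pools the share was 48.6% in low, 57.3% in intermediate and 51.8% in high tracts. With positions 1 bp apart merged it was 51.8%, 53.8% and 54.9%, and at the false discovery rate of 0.001 it was 50.7%, 55.4% and 54.3%. No paired analysis was possible because the reads of a treatment's animals are summed, which also prevents leaving an animal out. Depth limits single positions: 946 of the 1272 had 50 or more reads in both pools.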
